A study of Arabidopsis thaliana with 18 samples.

Results

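The chloroplast of Arabidopsis thaliana keeps a small genome of its own, and 43 of its genes that encode parts of the photosynthetic machinery are described here. They were chosen as the plastid genes whose symbol begins with psa, psb, pet, atp or ndh, together with rbcL, wherever the array had a probe set matching that gene alone. These 43 genes are among 69 plastid genes with such a probe set, and among 44 plastid genes of these names in the gene table. The remaining one, ndhB, has 2 copies that share a probe set, and it was left out. The set holds 5 genes of photosystem I, 15 of photosystem II, 6 of the cytochrome b6f complex, 6 of the ATP synthase, 10 of the NDH complex and rbcL, each measured by 1 probe set out of 22746 tested on the array. The choice used gene names and no measured value.

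Photosystem II splits water and passes electrons through the cytochrome b6f complex to photosystem I, the NDH complex returns electrons from the stroma to this chain, and the ATP synthase uses the proton gradient that the chain builds. Rubisco, whose large subunit is encoded by rbcL, fixes carbon dioxide. Each of these complexes is built from subunits of the plastid genome and subunits imported from the cytosol, and plastid genes are often transcribed as long runs that are cut into smaller RNAs. Plastid RNAs mostly lack the stable poly(A) tail of nuclear messengers, and the labels do not say how the RNA was primed for labelling.

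All plants were wild type Col-0, aged 5 to 6 weeks, with no treatment named. Rosettes were frozen at 6 labelled times, 0, 4, 8, 12, 16 and 20 h, and each of the 18 samples pooled 15 rosettes. The 3 samples of a time came from courses that were grown apart, named here series A, B and C by their replicate letters, and each of the 3 series has 1 array per time. The labels do not say when the light came on, so no time is called day or night, and each series is a single course: a difference between series is measured against the spread of arrays, not of courses.

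The signal of a probe set is the deposited intensity on a linear scale, and differences are on the scale of log2(intensity + 1.1), which understates the change of dim probe sets. A gene was taken to differ where limma's moderated test gave an adjusted p below 0.05 over all 22746 probe sets. Signals of different probe sets cannot be set against each other, and in whole rosettes fewer cells of a type and less RNA per cell cannot be told apart. The number of arrays limits the precision, with 3 per time and 6 per series. None of the members' values was listed at 0. Of 6 leaf marker genes 5 were measured, with series means from 2270 to 6990. The root marker PYK10 had series means of 175 to 205 and EXPA7 of 6.47 to 11.4, while the flower and seed markers were not analysed here.

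Series C stood apart from series A and B in several controls, which bears on every comparison of series below. The spike-in bioC, bacterial RNA added as a hybridization control, had a median signal of 154 in both series A and series B, against 574 in C. The ratio of the 3′ to the 5′ probe set of ubiquitin, a measure of RNA integrity and of labelling, lay between 2.14 and 2.80 in series A, between 2.55 and 3.14 in B, and between 3.83 and 5.98 in C. The same ratio of GAPDH lay between 1.44 and 2.17 in A, 0.994 and 1.83 in B, and 1.9 and 2.76 in C, so A and C overlapped. The brightest probe set of an array reached between 4252.7 and 5725.0 in series A and B and between 11090.3 and 13156.9 in series C. Over all probe sets the median difference was 0.15 between series C and A and 0.18 between C and B. These features cannot be told apart from the growth of series C as a source of its differences.

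The plastid photosynthetic genes differed far more between the 3 series than between the 6 times. In the test of the 3 series, with time in the model, 38 of the 43 genes differed, 88.4% against 27.8% of all probe sets. The series accounted for a median of 68.1% of a gene's sum of squares and time for 13.0%, against 23.2% and 29.3% over all probe sets. Series C was higher than series A for 34 genes and lower for 0 (79.1% higher, against 14.5% of all probe sets higher and 7.31% lower), with a median difference of 1.09, a 2.13-fold higher signal. Series C was higher than series B for 32 genes and lower for 0, against 20.1% and 7.97% of all probe sets, with a median difference of 0.76. At an unadjusted p below 0.05, limma also had 0 genes lower in C in either comparison. The comparisons share their arrays, and 28 genes passed in both. All 6 arrays of series C lay above all 12 of A and B for 16 genes, 37.2% against 2.77% of all probe sets. The map of all values shows this as a block of high signals in series C.

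**Figure D1:**
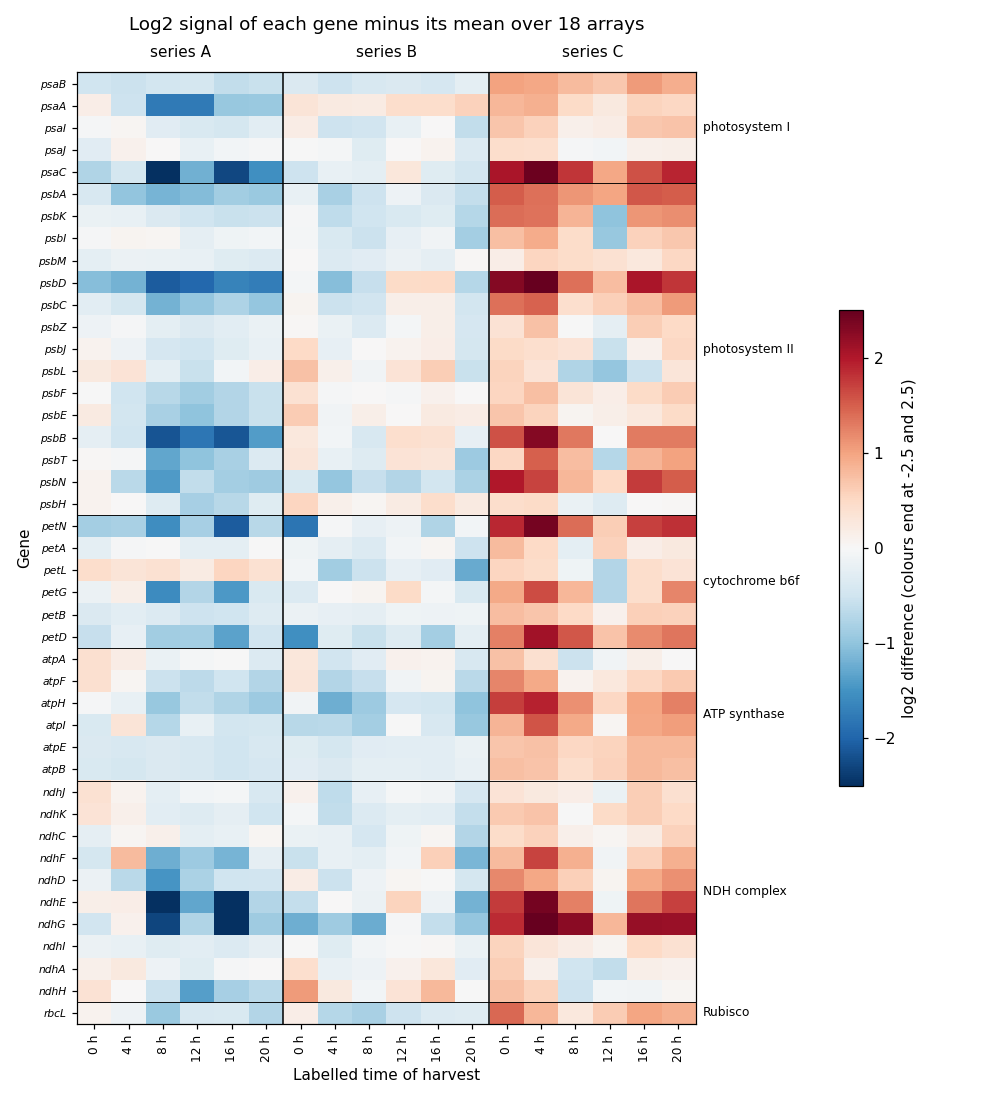
Log2 signal of each of the 43 genes minus its mean over the 18 arrays, with genes in rows by complex and arrays in columns by series and labelled time (h). Red is above and blue below the gene's own mean. Series C is red in most rows, palest at 12 h, and psaC, psbD, psbB, ndhE and ndhG reach their lowest values in series A.

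Photosystem I carries the light-driven step that reduces ferredoxin, and its 5 genes gave a median difference of 1.42 between series C and A. The gene psaB, for 1 of the 2 large proteins that bind the reaction centre chlorophylls, had signals of 3258.5 to 3708.0 in series A (median 3508.6), 3492.2 to 4254.8 in B (median 3842.8) and 8045.5 to 10562.4 in C (median 9616.7). All arrays of C were thus above all others, while A and B overlapped. The difference of C from A was 1.42 ± 0.09 (SE, 6 arrays each, limma adjusted p = 1.84e-06), and the series made up 97.7% of the gene's sum of squares. Under quantile normalization the difference was 0.44 and still passed the same threshold. Its partner psaA, for the other large protein, behaved differently: its signals were 795.1 to 3035.5 in A (median 1412.4), 3131.0 to 4027.8 in B (median 3521.3) and 3207.7 to 5011.3 in C (median 3926.6). Here B and C overlapped and A lay below both, and psaA was higher than A by 1.33 ± 0.21 in B (limma adjusted p = 0.0109) and by 1.54 ± 0.21 in C (limma adjusted p = 0.000277). The gene psaC, for the iron-sulphur protein on the stromal side, ranged from 18.9 to 124.3 in A (median 65.5), from 117.7 to 206.5 in B (median 140.4) and from 334.8 to 931.2 in C (median 614.1). Its difference of C from A was 3.34 ± 0.32 (limma adjusted p = 2.24e-05). Of the small subunits, psaI was 0.72 higher in C than in A (limma adjusted p = 0.00219), while psaJ had overlapping series, with 2325.4 to 3025.7 in A, 2215.0 to 3006.9 in B and 2692.6 to 3835.6 in C. Its difference of 0.24 ± 0.11 did not pass (limma adjusted p = 0.128).

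Photosystem II splits water, and 12 of its 15 genes were higher in series C than in A, with a median difference of 1.04. The gene psbA, for the D1 protein that is damaged by light and constantly replaced, had signals of 283.4 to 482.7 in A (median 328.8), 366.2 to 588.0 in B (median 470.1) and 1265.9 to 1887.3 in C (median 1739). The arrays of C lay above all others without overlap, and the difference from A was 2.25 ± 0.12 (limma adjusted p = 5.99e-07), the smallest p among the members. The gene psbD, for its partner D2, had 48.5 to 99.1 in A (median 63.0), 98.4 to 291.9 in B (median 171) and 356.1 to 1501.5 in C (median 788). Series C lay above all other arrays, and A and B met only at their edges. This was the largest difference of the set, 3.47 ± 0.31 between C and A (limma adjusted p = 1.57e-05), an 11.1-fold higher signal.

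The inner antenna proteins that pass light energy to the reaction centre followed. The gene psbC, for the CP43 antenna, ranged from 486.0 to 909.3 in A (median 599.5), from 755.5 to 1216.6 in B (median 969.1) and from 1477.2 to 3068.3 in C (median 2081.5), again with C above all others, and differed by 1.72 ± 0.16 between C and A (limma adjusted p = 1.99e-05). The gene psbB, for the CP47 antenna, was 48.3 to 187.6 in A (median 72.6), 166.5 to 296.5 in B (median 237.5) and 221.9 to 1089.6 in C (median 549.4). Only its arrays of A and C were free of overlap, and it was higher than A by 1.44 ± 0.30 in B (limma adjusted p = 0.0399) and by 2.68 ± 0.30 in C (limma adjusted p = 7.42e-05).

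The small proteins of photosystem II varied. Both subunits of cytochrome b559, encoded by psbE and psbF, were higher than A in series B as well as in C. The gene psbF had signals of 963.7 to 1757.4 in A (median 1146.3), 1724.2 to 2279.4 in B (median 1765.1) and 1971.7 to 2966.4 in C (median 2505.9), and was 0.63 ± 0.10 higher in B and 1.04 ± 0.10 higher in C than in A (limma adjusted p = 0.0109 and 2.24e-05). The gene psbN, for a protein needed to assemble the reaction centre, was 66.4 to 190.5 in A, 90.9 to 137.0 in B and 252.4 to 716.8 in C, with C above all other arrays and 2.11 ± 0.19 above A (limma adjusted p = 1.66e-05). At the other end stood psbL, a small subunit at the interface of the dimer, with 305.6 to 572.9 in A (median 465.6), 305.9 to 747.5 in B (median 528.9) and 230.1 to 657.6 in C (median 430.5). The 3 series overlapped throughout, and the difference of C from A was -0.16 ± 0.22 (limma adjusted p = 0.646). The genes psbI and psbJ, for small subunits, had differences of 0.46 and 0.45 that did not pass (limma adjusted p = 0.143 and 0.0508).

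The cytochrome b6f complex links the photosystems, and 5 of its 6 genes were higher in C than in A, with a median difference of 1.17. The gene petB, for cytochrome b6, had 2686.9 to 3211.9 in A (median 3040.7), 3321.0 to 3603.7 in B (median 3507.3) and 4158.8 to 6627.4 in C (median 5817.7). No 2 series overlapped, and C was 0.93 ± 0.10 above A (limma adjusted p = 4.66e-05), while the difference of 0.23 ± 0.10 between B and A did not pass (limma adjusted p = 0.292). Under quantile normalization petB was 0.21 above A in C and no longer passed (limma adjusted p = 0.0809). The gene petD, for subunit IV of the complex, was dim, at 12.1 to 27.9 in A (median 19.5), 10.4 to 27.3 in B (median 23.7) and 53.6 to 142.8 in C (median 81.6). Series C again lay above all other arrays, by 2.08 ± 0.21 against A (limma adjusted p = 4.18e-05).

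The small subunits of the complex went separate ways. The gene petG was 34.9 to 117.9 in A (median 72.1), 81.4 to 148.1 in B (median 104.9) and 63.7 to 330.2 in C (median 197.7), so that the series overlapped, and C was 1.41 ± 0.32 above A (limma adjusted p = 0.00833). Its neighbour petL, for another small subunit, was the only member lower in B than in A. Its signals were 847.5 to 1070.0 in A (median 955.2), 306.3 to 700.2 in B (median 550.7) and 441.5 to 1056.6 in C (median 964.4). Series B lay wholly below A, by -0.92 ± 0.20 (limma adjusted p = 0.0459), and C did not differ from A at -0.22 ± 0.20 (limma adjusted p = 0.451).

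Of the 6 ATP synthase genes 5 were higher in C than in A, with a median of 1.09. The genes atpB and atpE, for the catalytic beta subunit and the epsilon subunit of the stromal head, differed by the same amount. The gene atpB had 4041.1 to 4398.4 in A (median 4293.7), 4424.4 to 4968.0 in B (median 4776.1) and 7721.2 to 9986.9 in C (median 9457.1), with no overlap between any pair of series. The gene atpE had 3741.1 to 4130.2 in A (median 4005.4), 3900.8 to 4713.0 in B (median 4356.8) and 7515.2 to 9265.6 in C (median 8643.4), with C above all others. Both differed by 1.09 ± 0.09 between C and A (limma adjusted p = 7.31e-06 for atpB and 6.86e-06 for atpE). Under quantile normalization neither passed, at -0.03 for atpB and 0.02 for atpE (limma adjusted p = 0.853 and 0.876). The gene atpH, for the subunit of the membrane ring, was 388.2 to 738.0 in A (median 467.9), 324.6 to 705.0 in B (median 473) and 1080.4 to 2864.8 in C (median 1741.1), and C was 1.84 ± 0.20 above A (limma adjusted p = 6.08e-05). The gene atpA, for the alpha subunit, showed no such step, with 1270.2 to 2140.1 in A (median 1583.9), 1154.5 to 1959.7 in B (median 1529) and 1112.4 to 2671.6 in C (median 1704.3). Its series overlapped fully, and its difference of 0.10 ± 0.13 between C and A did not pass (limma adjusted p = 0.598).

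The NDH complex had the smallest median difference between C and A of the complexes, 0.63, with values from 0.00 to 3.14 and 7 of 10 genes higher in C. The gene ndhG, for a membrane subunit, was 14.6 to 104.2 in A (median 54.2), 40.2 to 95 in B (median 50.4) and 172.8 to 582.5 in C (median 437.7), with C above all others and 3.14 ± 0.40 above A (limma adjusted p = 0.0002). Its neighbour ndhE, also for a membrane subunit, was 24.6 to 179.0 in A (median 79.7), 69.9 to 233.5 in B (median 144.9) and 147.1 to 837.9 in C (median 465.5). Its series overlapped, and C was 2.53 ± 0.46 above A (limma adjusted p = 0.00204). The gene ndhF, for a large membrane subunit of the proton-pumping arm, was 13.9 to 58.9 in A (median 21.0), 14.7 to 51.6 in B (median 29.0) and 31.7 to 111.3 in C (median 61.1), a difference of 1.32 ± 0.32 between C and A with overlapping arrays (limma adjusted p = 0.0112). The gene ndhA, for the membrane subunit that joins the 2 arms, was the least affected member: it had 1261.4 to 1841.4 in A (median 1549.2), 1284.1 to 2086.8 in B (median 1557.5) and 1022.0 to 2389.8 in C (median 1702.4), and the series made up 0.66% of its sum of squares. The genes ndhC and ndhJ, for subunits of the membrane arm and the stromal arm, had differences of 0.40 and 0.31 that did not pass (limma adjusted p = 0.0561 and 0.106).

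The gene rbcL had signals of 172.8 to 347.4 in A (median 250.2), 185.8 to 367.1 in B (median 243.6) and 396.7 to 885.1 in C (median 598.4). Its arrays of A and B covered nearly the same range, and all arrays of C lay above them. The difference of C from A was 1.25 ± 0.10 (limma adjusted p = 6.16e-06), and that of B from A was -0.01 ± 0.10 (limma adjusted p = 0.981).

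Between series B and A 7 of the 43 genes differed, 16.3% against 0.976% of all probe sets (0.506% higher and 0.47% lower). Those higher in B were psaA, psbB, psbE, psbF, psbH and ndhH, and petL was lower. The gene ndhH, for a stromal subunit of the NDH complex, was 0.91 ± 0.18 higher and psbH, for a phosphorylated small subunit of photosystem II, 0.60 ± 0.12 higher (limma adjusted p = 0.0296 and 0.0279). With series C left out of the fit none of the 7 passed, so these calls rest on the spread estimated with all 3 series. The plot of the differences by gene shows the contrast between the small differences of B from A and the large ones of C from A.

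**Figure D2:**
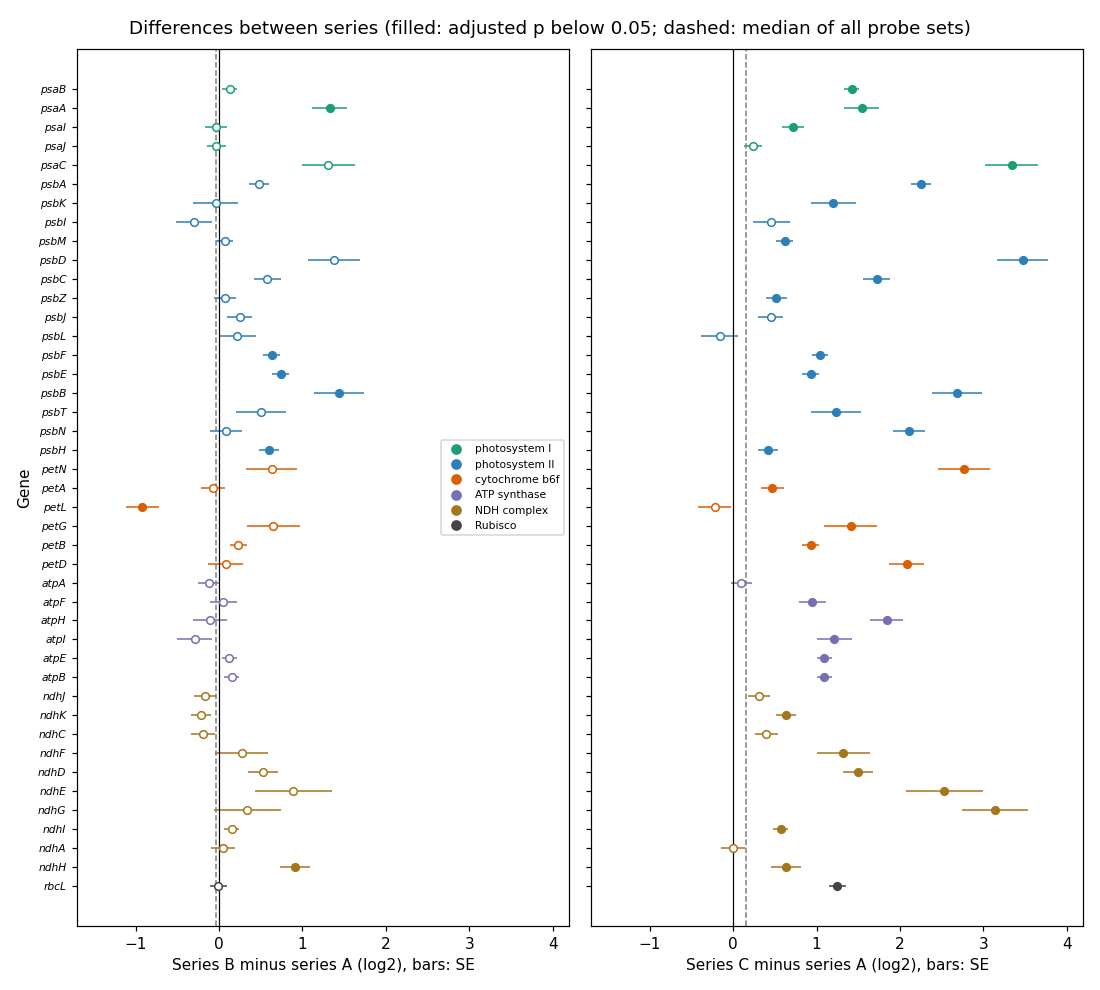
Difference of series B (left) and series C (right) from series A for each gene on the log2 scale, with SE bars, coloured by complex. Filled points passed limma's test at an adjusted p below 0.05 and the dashed line is the median of all probe sets. The differences of C from A run from -0.22 for petL to 3.47 for psbD, and under quantile normalization those of psbM, atpB and ndhI turn below 0.

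Neighbours on the plastid genome often had differences of unlike size. In gene order 38 of the 43 genes stand in 10 runs of adjacent members, by the gene table of the TAIR10.1 assembly. The table gives no strand, so a run need not be 1 transcript. In the run of ndhD, psaC, ndhE, ndhG, ndhI, ndhA and ndhH, the differences of C from A were 1.5, 3.34, 2.53, 3.14, 0.57, 0.00 and 0.63. Its values thus ran from no difference for ndhA, the junction subunit, to the second largest of all members for psaC. In the run of psbB, psbT, psbN, psbH, petB and petD they were 2.68, 1.23, 2.11, 0.42, 0.93 and 2.08. By contrast, atpE, atpB and rbcL, a run of 3 neighbours, gave 1.09, 1.09 and 1.25 in the values as deposited. Under quantile normalization this likeness was lost: atpE gave 0.02 and atpB -0.03, and neither passed, while rbcL still did. The run of atpA, atpF, atpH and atpI gave 0.10, 0.95, 1.84 and 1.21. The genes psbD and psbC overlap at their ends, as do atpB and atpE, which limits how far their signals are separate.

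Members with a dim signal in series A had the larger differences. The 8 members with a series A mean between 20 and 100 had a median difference of 2.73 between C and A, against 0.10 for 7305 probe sets of like signal that do not lie in the organelle range of the array. The 9 members between 100 and 500 had a median of 1.21 against -0.08, and the 16 members between 500 and 2000 had 0.62 against 0.00. For the 9 brightest, above 2000, the median was 0.62 against 0.49 for 167 other probe sets, of which 94.0% had a difference above 0. The remaining member, petD, had a mean below 20. The difference of the brightest members was thus close to that of other bright probe sets, and 5 members (psaA, psaB, psbM, atpB and atpE) had arrays of A or B above a signal of 4000, near the top of those arrays. Under quantile normalization, which gives all arrays the same distribution, 26 of the 34 genes still passed as higher in C than in A (7.77% of all probe sets did), while atpE, petA, petB, psbH and psbZ no longer passed and psbM, atpB and ndhI turned to -0.24, -0.03 and -0.03. The median over the 43 genes was then 0.81, and it was 0.94 with equal array medians, where 31 genes passed as higher, against 7.0% of all probe sets.

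Ribosomal RNA measured on the same arrays moved with these genes. The control probe set for 25S rRNA, the large RNA of the cytosolic ribosome, had signals of 28.6 to 166 in series A, 153 to 448 in B and 824 to 2160 in C. That for 5S rRNA had medians of 26.4, 32.3 and 113, with overlapping series: it reached 44.9 in A and 58.5 in B and began at 40.4 in C. The mean log2 deviation of the 43 genes from their own means ran from -0.81 to -0.12 in A, from -0.45 to -0.02 in B and from 0.10 to 1.11 in C. Series C thus lay above both other series in the 25S signal and in the mean deviation, while A and B overlapped. Within series A, the array of 0 h had the highest 25S signal (166.5) and the array of 8 h the lowest (28.6), and the mean deviations there were -0.12 and -0.81. Within series C the array of 12 h had the lowest 25S signal, 824.4, and the lowest mean deviation, 0.10. But the array of 4 h C had the highest mean deviation, 1.11, at a 25S signal of 1033.1, while 0 h C had 0.98 at 2163.5. The Pearson correlation of the log 25S signal with the mean deviation, over the 6 arrays of a series, was 0.83 in A, 0.86 in B and 0.62 in C. The part of what moves this control in these differences was not tested.

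**Figure D3:**
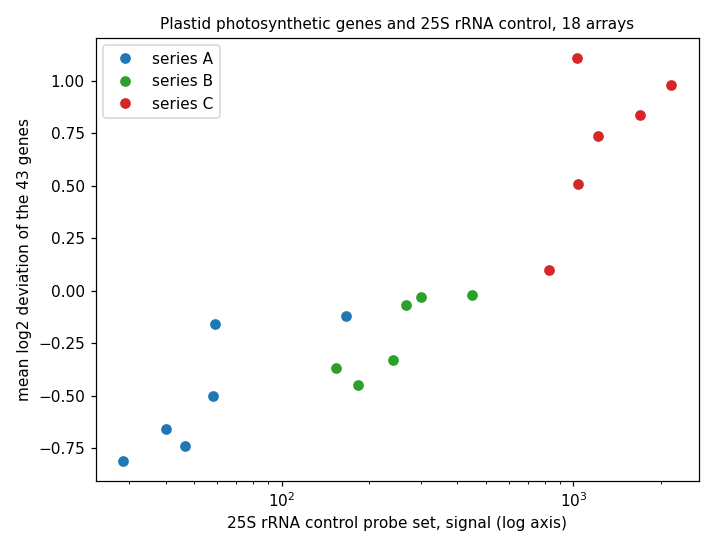
Mean log2 deviation of the 43 genes (vertical axis) against the signal of the 25S rRNA control probe set (horizontal log axis), 1 point per array, coloured by series. The 6 arrays of series C lie at 824 and above with deviations of 0.10 to 1.11, and the arrays of A lie at 166.5 and below.

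The other plastid genes and the nuclear partners give a comparison. Of 26 plastid genes outside the photosynthetic set, mostly for ribosomal proteins and the plastid RNA polymerase, 14 were higher and 1 was lower in series C than in A, with a median of 0.48. Of all probe sets 14.5% were higher and 7.31% lower. The largest difference was that of rpoB, for the beta subunit of the plastid RNA polymerase, at 4.15 ± 0.48 (limma adjusted p = 8.04e-05). Its mean signal was 9.2 in A and 17.4 in B, below the array medians of 32.2 to 39.9, and 152 in C. The size of this difference is thus uncertain. The gene lower in C was rpoC2, for another subunit of that enzyme, at -0.95 ± 0.12 (limma adjusted p = 0.000204). Of 51 nuclear genes listed for the same complexes 11 were measured. Those that passed were PSAE-1 and PSAN of photosystem I (1.04 and 0.64 higher in C than in A), PSBW of photosystem II (0.74), PETM of the cytochrome b6f complex (0.84), ATPC1 of the ATP synthase (0.97) and the Rubisco activase RCA (0.97). The nuclear PSBY, PSB27 and ATPC2 had differences of 0.08, 0.14 and 0.38, and the NDH subunits NDHL and NDHN had -0.23 and -0.34, and none of these passed. The measured nuclear genes that passed had series A means of 2690 to 3810, in the range where most probe sets were higher in C. Of those that did not pass, PSBY and PSB27 were also in this range above 2000, with series A means of 3150 and 2200. ATPC2, NDHL and NDHN had 27.4, 868 and 738.

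The question of the time course was whether these genes change over the day. The tests of time here and in the next paragraph had no term for the series, so the spread between series counted as error. That spread was larger for the members, a median of 68.1% of the sum of squares against 23.2% over all probe sets. Their counts are thus not on an equal footing with those of all probe sets. In the test of the 6 time means none of the 43 genes passed by limma, against 6.53% of all probe sets, and 2 had an unadjusted p below 0.05 (15.9% of all probe sets did). These were atpA (limma adjusted p = 0.189) and ndhA (limma adjusted p = 0.299). In the test of a 24 h cosine again 0 passed by limma, against 12.5% of all probe sets, and 3 had an unadjusted p below 0.05, psbL, ndhA and psbH (23.2% of all probe sets did). The range of the 6 time means had a median of 0.74 over the members and 0.64 over all probe sets, and it includes the spread between series. The means were highest at 0 or 4 h for 40 genes (93.0% against 41.7% of all probe sets) and lowest at 8 or 12 h for 37 genes (86.0% against 38.2%). Members share arrays and series, so these counts are not independent evidence gene by gene.

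**Figure D4:**
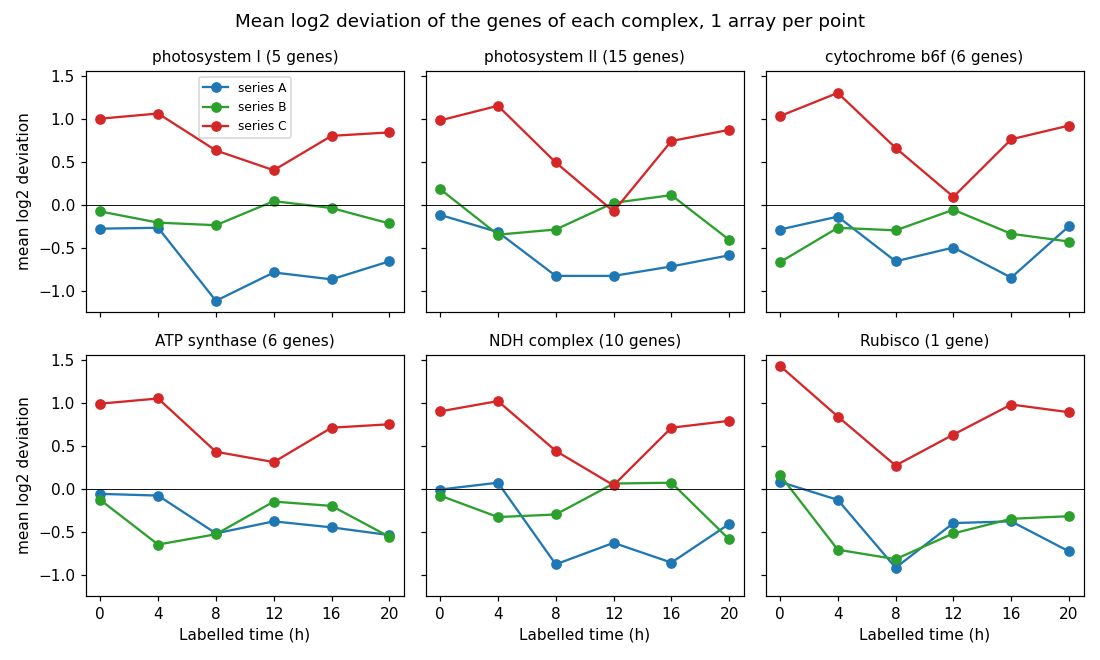
Mean log2 deviation of the genes of each complex from their own means (vertical axis) at each labelled time in h (horizontal axis), with 1 array per point and a line per series. Series C is above A and B at every time except 12 h, where the mean of photosystem II is -0.08 in C and 0.02 in B and that of the NDH complex is 0.04 in C and 0.06 in B.

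Of the 9 pairs of times tested, that of 12 and 0 h had the most genes with an unadjusted p below 0.05, and the pair of 8 and 0 h was not tested. The means of 39 of the 43 genes were lower at 12 h than at 0 h, with a median difference of -0.48 against 0.03 over all probe sets, and the range ran from -1.10 for ndhH to 0.16 for petN. None passed by limma, against 10.9% of all probe sets (5.43% higher and 5.44% lower at 12 h). All 7 with an unadjusted p below 0.05 were lower at 12 h (22.1% of all probe sets in either direction), and the smallest adjusted p was 0.0517, for ndhA. The signal was lower at 12 h in all 3 series for 20 genes, 46.5% against 23.4% of all probe sets, and higher in all 3 for none, against 25.5%. All arrays of 12 h lay below all arrays of 0 h for 9 genes, against 13.5% of all probe sets.

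Since a series holds all 6 times and its arrays share a course of growth, the comparison was repeated with the series as a block. The block takes the spread between series out of the error, and the SE of the 12 h difference of rbcL went from 0.53 to 0.14. The 12 h difference then passed for 9 genes, all lower at 12 h, 20.9% against 17.1% of all probe sets in either direction and 8.24% lower. The time test passed for 3 genes, rbcL, psbE and ndhH, against 11.3% of all probe sets, and the cosine for 4 genes, psbE, psbF, psbH and ndhH, against 18.4%. The share of members that passed these last tests was thus below the share of all probe sets.

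The gene rbcL gave the most certain of these differences in the time test. It had signals of 347.4, 367.1 and 885.1 at 0 h (order A, B, C), of 172.8, 185.8 and 396.7 at 8 h, and of 247.7, 229.1 and 507.5 at 12 h. Each series was highest at 0 h and lowest at 8 h, a pattern that held in no other member. The difference from 0 to 12 h was -0.65 ± 0.14 with the series as a block (limma adjusted p = 0.00519). That from 0 to 4 h was -0.56 ± 0.14 (limma adjusted p = 0.0315, against 6.42% of all probe sets). With all arrays it was the only neighbouring step that passed. This step did not pass once the arrays of 4 h B and 16 h B were left out of the block fit. For rbcL the steps from 4 to 8 h (-0.67, limma adjusted p = 0.0104) and 20 to 0 h (0.61, 0.0127) then passed. Of the other members, atpF and psbC then passed from 4 to 8 h, and atpA, atpF and ndhH from 20 to 0 h. Of all probe sets 3.79% and 2.26% passed these steps.

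The gene psbE, for the alpha subunit of cytochrome b559, had 1016.9, 1349.3 and 1419.1 at 0 h and 435.3, 882.8 and 972.0 at 12 h (order A, B, C). The arrays of the 2 times did not overlap, and the difference was -0.79 ± 0.15 with the block (limma adjusted p = 0.00195). The gene psbF, for the beta subunit, had 1757.4, 2279.4 and 2560.4 at 0 h and 963.7, 1724.2 and 1971.7 at 12 h, a difference of -0.55 ± 0.14 with the block (limma adjusted p = 0.0146). It was lowest at 12 h in each series, though the arrays of the 2 times overlapped across series.

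The gene psbH had 1562.2, 2135.9 and 1994.3 at 0 h and 827.2, 1699.8 and 1189.6 at 12 h, and the difference was -0.66 ± 0.17 with the block (limma adjusted p = 0.0147). The gene ndhH had 179.6, 292.1 and 231.6 at 0 h and 52.4, 175.3 and 131.6 at 12 h. Its arrays of 12 h were all below those of 0 h, and the difference was -1.10 ± 0.26 with the block (limma adjusted p = 0.00912). The gene ndhA had 1712.6, 2086.8 and 2389.8 at 0 h and 1261.4, 1685.1 and 1022.0 at 12 h, also without overlap, at -0.66 ± 0.20 with the block (limma adjusted p = 0.035).

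The gene atpF, for a stalk subunit of the ATP synthase, had 783.3, 737.2 and 1382.9 at 0 h and 378.1, 563.0 and 719.3 at 12 h, all arrays of 12 h being lower. Its difference was -0.79 ± 0.23 with the block (limma adjusted p = 0.0268). The other 2 that passed were psbN and psbJ, at -0.85 ± 0.27 and -0.68 ± 0.22 with the block (limma adjusted p = 0.0449 and 0.0484). These calls depended on single arrays. With each array left out in turn between 3 and 17 genes passed, and the share of all probe sets moved too. Without the array of 12 h A or of 12 h C 3 were left, against 11.3% and 12.7% of all probe sets. Without 0 h A or 0 h C 4 were left, against 12.4% and 11.8%, and without 12 h B 17 passed, against 14.6%. Without series A or without series C 1 gene passed, rbcL and psbE respectively, against 4.27% and 5.61%. Without series B 21 did, against 19.6%. Among these 21 settings rbcL and psbE each passed in 20 and psbJ in 6.

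**Figure D5:**
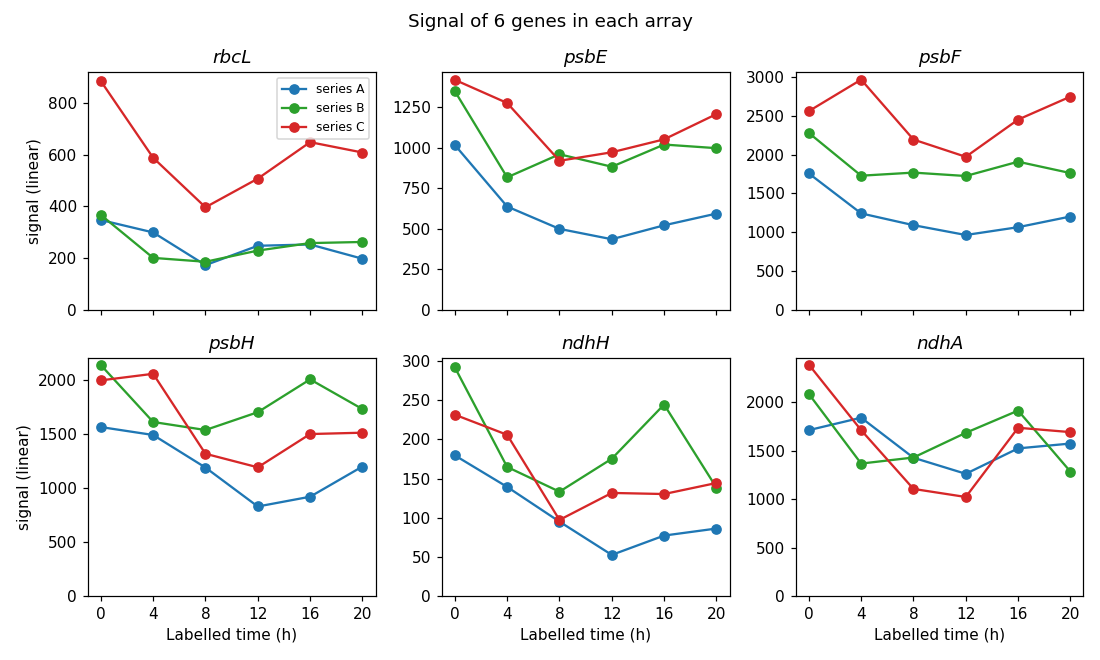
Signal on a linear scale of rbcL, psbE, psbF, psbH, ndhH and ndhA (vertical axes from 0) at each labelled time in h, with 1 array per point and a line per series. In every panel each series is lower at 12 h than at 0 h, and rbcL is lowest at 8 h in all 3.

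The control for 25S rRNA did not move alike in the 3 series between these times. Its signal went from 166.5 to 40.3 in series A and from 2163.5 to 824.4 in C between 0 and 12 h, but from 266.4 to 447.8 in B, where rbcL, psbE, psbF, psbH, ndhH and ndhA were lower at 12 h as in the other series. These 6 genes are among those that passed between these times with the block. The mean deviation of all 43 genes in series B went from -0.07 at 0 h to -0.02 at 12 h, while it went from -0.12 to -0.66 in A and from 0.98 to 0.10 in C. The part of the control's change in these differences was not tested.

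A wide range of time means did not by itself bring a call. The widest range was 1.33, for ndhE, whose signals were 177.0, 105.7 and 537.8 at 0 h, 179.0, 159.6 and 837.9 at 4 h and 24.6, 145.8 and 406.4 at 16 h (order A, B, C). The troughs fell at different times, with 24.6 at 16 h in A, 69.9 at 20 h in B and 147.1 at 12 h in C, and the gene did not pass the time test (limma adjusted p = 1.0). The gene psbK, for a small subunit of photosystem II, had 1595.1, 1757.0 and 4729.0 at 0 h and 1263.7, 1377.1 and 887.2 at 12 h, so that 1 array, 12 h C, set most of its range of 1.03. The neighbouring psbI showed the same drop in that array, to 764.7 from 2029.8 at 8 h.

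The times of the lowest and highest arrays are described by series here, with no test. Series C was lowest at 12 h for 31 of the 43 genes (72.1% against 19.5% of all probe sets). That array also had the lowest ubiquitin 3′ to 5′ ratio of series C, 3.83 against 4.79 to 5.98 in the other 5, whose part in the low signals was not tested. The Pearson correlation of this ratio with the mean deviation of the 43 genes, over the 6 arrays of a series, was 0.83 in C. It was -0.83 in A and 0.1 in B. Series B was lowest at 4 h for 16 and at 20 h for 16 genes and at 12 h for 1. In series A the lowest array was that of 8 h for 14 genes, of 12 h for 12 genes and of 16 h for 11 genes. The highest array was at 0 h for 22 genes in A, 19 in B and 15 in C, and 8 genes had the same time of highest signal in all 3 series, among them rbcL, psbE and ndhH. When the cosine was allowed to differ between series, 0 members passed by limma, as did 0.0% of all probe sets, and 4 had an unadjusted p below 0.05 (9.67% of all probe sets did). The smallest was that of psaA (limma adjusted p = 0.292). Its signal in series A went from 3035.5 at 0 h to 795.1 at 8 h and 795.5 at 12 h, while in series B it stayed between 3131.0 and 4027.8.

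Among the other plastid genes, rpl33 and rps18, for ribosomal proteins, were lower at 12 h than at 0 h by limma without the block (-0.79 and -0.86, adjusted p = 0.0415 and 0.0355). None of the 11 measured nuclear genes changed with time by limma's test of 6 time means, against 6.53% of all probe sets. The smallest adjusted p was 0.444, for NDHL. This test also had no term for the series, so the spread between series counted as error.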

How the data were processed

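Full rosettes were ground 15 to a sample and biotinylated cRNA was made from total RNA, per the labels' protocols. The deposited intensity values, on a linear scale with 1 value per probe set and array, were made by the authors with MAS5, per the submitters' processing notes, whose version is not stated. Every array had a mean of 100.01 once 2% of values were trimmed at either end, so arrays had been scaled, and array medians were 32.2 to 39.9. Present or absent calls were not used, and no statement is made on which signals exceed background.

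Values were kept as deposited and analysed as log2(intensity + 1.1), 1.1 being the 10th percentile of all values. Groups came from the sample titles. The 64 control probe sets were left out, and limma 3.58.1 in R 4.3.3 was fitted to 22746 probe sets over all 18 arrays, with eBayes, an intensity trend and Benjamini-Hochberg adjustment. Tests were two-sided or F tests: of 6 time means, of a 24 h cosine, of 3 series with time in the model, of 9 pairs of times, and of the cosine's interaction with series. The scripts were tested on simulated data. Symbols came from the platform's annotation, updated through a RefSeq table of TAIR10.1; no coordinates are given, since the files name no build. The series letters pair the arrays because the design text says that the courses were grown separately. The mean correlation of arrays within a series, after the time means were removed, was 0.174 in series A, 0.161 in B and 0.328 in C. The lowest correlation of a pair of arrays was -0.018 in A, -0.277 in B and 0.207 in C.

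Genes shown in full were, per complex, that with the smallest p of the time test and that with the largest range of time means, a core subunit of each complex, and the 12 with the smallest p of the series test; other values given belong to calls or neighbours. Members, lists and tests were chosen with earlier results of these data known. Alternatives were quantile normalization, equal array medians, an offset at the 25th percentile (7.1), a floor of 1, a filter that dropped the dimmest probe sets (mean signal under the 40th percentile), no trend, the series as a block, and leaving out each array or series.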

Additional observations from a re-analysis of the deposited data

How the results depend on the processing

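With the replicate block (the series letter as a term), which pairs the arrays of a series, 3 genes changed with time, 4 had a cosine and 9 differed between 12 and 0 h. The cause of the changes below was not tested. Further choices made after the data were seen gave, in the same order, 8, 9 and 12 with the block when the array of 4 h B and that of 16 h B were dropped, 4, 3 and 9 with the block and equal array medians, and 3, 3 and 8 with the block and quantile normalization. With those 2 arrays dropped 21.0%, 26.1% and 21.4% of all probe sets passed, against 11.3%, 18.4% and 17.1% with the block alone. Between 16 and 4 h 7.87% then passed, against 0.0% with the block alone. Without these 2 arrays and without the block the counts were 1, 1 and 1. Between 12 and 0 h, quantile normalization, a floor of 1, an offset at the 25th percentile and leaving out dim probe sets each gave 1 gene. Leaving out single arrays or series, with or without the block, gave 0 to 18 genes for time, 0 to 17 for the cosine and 0 to 21 for 12 against 0 h, the highest counts being with the block and without series B. For 12 against 0 h with the block, 4.27% of all probe sets passed without series A and 19.6% without series B. For the 3 series it gave 0 (without series C) to 38, and for B above A 0 (without series C) to 10 (without the array of 4 h B). B above A fell to 3 genes without a variance trend, and C above B to 21 under quantile normalization and 24 with equal array medians, where psbH alone was lower in C (-0.34). Under quantile normalization the differences of C from A turned to -0.24 for psbM, -0.03 for atpB and -0.03 for ndhI, and those of C from B to -0.19, -0.09 and -0.09. Leaving out all but 1 probe set per gene changed nothing, since each gene had 1.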

Other observations

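The probe set shared by the 2 copies of ndhB, for a membrane subunit of the NDH complex, had signals of 20.1 to 39.8 in series A, 16.4 to 34.0 in B and 75.9 to 163.1 in C. Its difference of C from A was 1.87 ± 0.21 (limma adjusted p = 7.42e-05).

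Of the probe sets with a single gene outside the 43, the 5 with the highest Pearson correlation over the 18 arrays with the mean log2 signal of the members were AT1G25260 (0.971), accD (0.947), clpP (0.947), ycf3 (0.946) and RCA (0.942). The plastid genes among them are accD, for a subunit of acetyl-CoA carboxylase, clpP, for a protease subunit, and ycf3, for an assembly factor of photosystem I. The arrays share the difference between series, so these values are a description only.

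For 22 probe sets with mitochondrial gene symbols, chosen after the other results were seen, the differences of series C from A had a median of 0.26 and ran from -0.48 to 1.32, with 3 higher and 1 lower by limma. These counts are near the shares of all probe sets, 14.5% higher and 7.31% lower. Series A means ran from 0.55 for matR to 128 for nad4, and most lay below the array medians of 32.2 to 39.9. The differences of such dim probe sets are understated, and nad1 and nad5 had more than 1 probe set each. The median is thus a weak comparison with the plastid genes.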
